A study of Triticum aestivum and Triticum turgidum subsp. durum with 27 samples.

Results

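Proline can be made in plants from glutamate or from ornithine, and the transcripts of the enzymes that open these 2 routes were followed in wheat glumes under drought. The members were the probe sets that the study lists under 3 enzyme names: delta-pyrroline-5-carboxylate synthase (P5CS, 1 probe set), ornithine aminotransferase (OAT, 5 probe sets) and ornithine cyclodeaminase (OCD, 1 probe set). These are 7 of the 61290 probe sets of the Affymetrix Wheat Genome Array. The rule uses enzyme names, not measured values, although earlier results of these data were known when it was chosen.

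P5CS turns glutamate into pyrroline-5-carboxylate and is regarded as the rate-limiting step of proline synthesis from glutamate in plants. OAT turns ornithine, an intermediate of arginine metabolism, into the same pyrroline-5-carboxylate, which pyrroline-5-carboxylate reductase then reduces to proline. OCD is known from bacteria, where it turns ornithine into proline in a single step, and in Arabidopsis a protein of the OCD family takes part in the synthesis of pipecolic acid. Proline builds up in many plants during water shortage and serves as a compatible solute, and proline dehydrogenase breaks it down again in mitochondria.

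Glumes, the green bracts that enclose the wheat floret, were collected from durum wheat Creso (genomes A and B), from bread wheat CS, which is Chinese Spring (genomes A, B and D), and from CS_5AL-10, a Chinese Spring deletion line without the end of the 5AL arm. Plants of each genotype were either well watered at a soil water content of 28% (CTRL) or had watering stopped at 3 days post anthesis. The latter were sampled at a mild to moderate stress (MS) or at a severe stress (SS). By the study's methods, their pots were held at the target soil water content, once dried to it, by adding water. Each of the 9 groups had 3 arrays, so that 27 arrays were analysed, and the study describes these as biological replicates. Creso is labelled as 7 days after anthesis and both bread wheats as 10 days after anthesis, while the study's methods place sampling later and the genotypes closer together in stage. Genotype, genome composition, stage and the fit of the probes to each genome cannot be told apart. The deleted segment is represented by 1 line, and a probe set does not separate the copies of a gene on the A, B and D genomes.

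The values are MAS5 intensities, a linear brightness per probe set. The small number of arrays, 3 per group, limits the precision. Array medians ran from 59.1 to 99.1, and replicate arrays correlated at r of 0.908 to 0.975 across probe sets. Differences are on the scale of log2(intensity + 16) after centring of each array on its median, and a probe set was called higher or lower where limma gave an adjusted p under 0.05 and the groups differed at least 2-fold. Levels are compared between groups for 1 probe set, never between probe sets, since probes differ in brightness. In bulk tissue, fewer cells of a type and less RNA per cell cannot be told apart. The 3 photosystem probe sets chosen as markers of green tissue were above the array median on every array, at a mean log2 level of 13.43 to 15.27. This level also moved with genotype. It was 14.78 to 15.27 in Creso CTRL, 13.72 to 14.41 in CS CTRL and 13.43 to 13.72 in CS_5AL-10 CTRL. In CS_5AL-10, SS (14.16 to 14.52) lay wholly above CTRL, while SS and CTRL overlapped in Creso and in CS. The 6 anther and pollen probe sets stayed between 7.93 and 8.95. The 17 probe sets for storage proteins of the endosperm, a grain tissue, varied far more, from 5.54 to 11.82, and their levels are given beside the results with which they move.

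Of the 7 members, 6 passed the filter, which asked for a level above the array median on all 3 arrays of at least 1 group. P5CS was among the brightest probe sets of every array, between the 90.2nd and the 99.9th percentile. The OAT probe set Ta.5321.1.S1_at lay between the 96.1st and 99.6th percentile, Ta.21613.1.S1_at between the 89.7th and 96.4th, and Ta.12337.1.S1_at between the 80.9th and 95th. OCD ranged from the 68.3rd to the 96.1st percentile. The OAT probe set Ta.28040.1.A1_at was dim, at 37.32 to 385.5, and exceeded the array median on 24 of 27 arrays. The last OAT probe set, Ta.12835.1.S1_at, was above the array median on 0 of 27 arrays (1.673 to 57.73) and was not tested.

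P5CS, the entry to the glutamate route, rose in all 3 genotypes already at MS. In Creso, the CTRL arrays gave intensities of 8572, 10061 and 7631, the MS arrays 32017, 31390 and 22525, and the SS arrays 34855, 37042 and 35345. The CS arrays read 2239, 2458 and 2016 under CTRL, 10245, 15008 and 5008 under MS, and 24979, 10073 and 8045 under SS. Those of CS_5AL-10 read 2068, 1797 and 4156 under CTRL, 10766, 7463 and 10319 under MS, and 24436, 17098 and 16768 under SS. Within each genotype, every stressed array was above every CTRL array. MS and SS arrays overlapped in CS only, where SS replicates 2 and 3 lay within the range of MS.

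From CTRL to MS, P5CS rose by 1.77 log2 units or 3.415-fold in Creso (SE 0.34, adjusted p = 0.006872), by 2.20 or 4.61-fold in CS (adjusted p = 0.0007794), and for CS_5AL-10 by 1.87 or 3.655-fold (adjusted p = 0.002287). From CTRL to SS it rose by 2.17 or 4.497-fold in Creso (adjusted p = 0.0001159), by 2.54 or 5.835-fold in CS (adjusted p = 3.237e-05), and for CS_5AL-10 by 3.01 or 8.046-fold (adjusted p = 2.298e-06). The step from MS to SS was smaller and was not called in any genotype. Creso glumes showed a step of 0.40 (95% interval -0.30 to 1.09), those of CS 0.34 (-0.36 to 1.04) and those of CS_5AL-10 1.14 (0.44 to 1.83, adjusted p = 0.1177). Averaged over the genotypes, P5CS rose by 1.95 at MS (adjusted p = 1.144e-06) and 2.57 at SS (adjusted p = 1.135e-09), and the step from MS to SS was 0.63 (SE 0.19, adjusted p = 0.04958), under the 2-fold limit. The 6 called increases lost their call under the methods' t-test, which called 0 to 3 of 34089 probe sets in the drought comparisons. That t-test was run here on the centred MAS5 values. The study ran it on RMA values filtered by detection calls. It reported far more probe sets at SS against CTRL in each genotype and at MS against CTRL in both bread wheats. For Creso at MS against CTRL, however, it reported 0 probe sets.

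**Figure D1:**
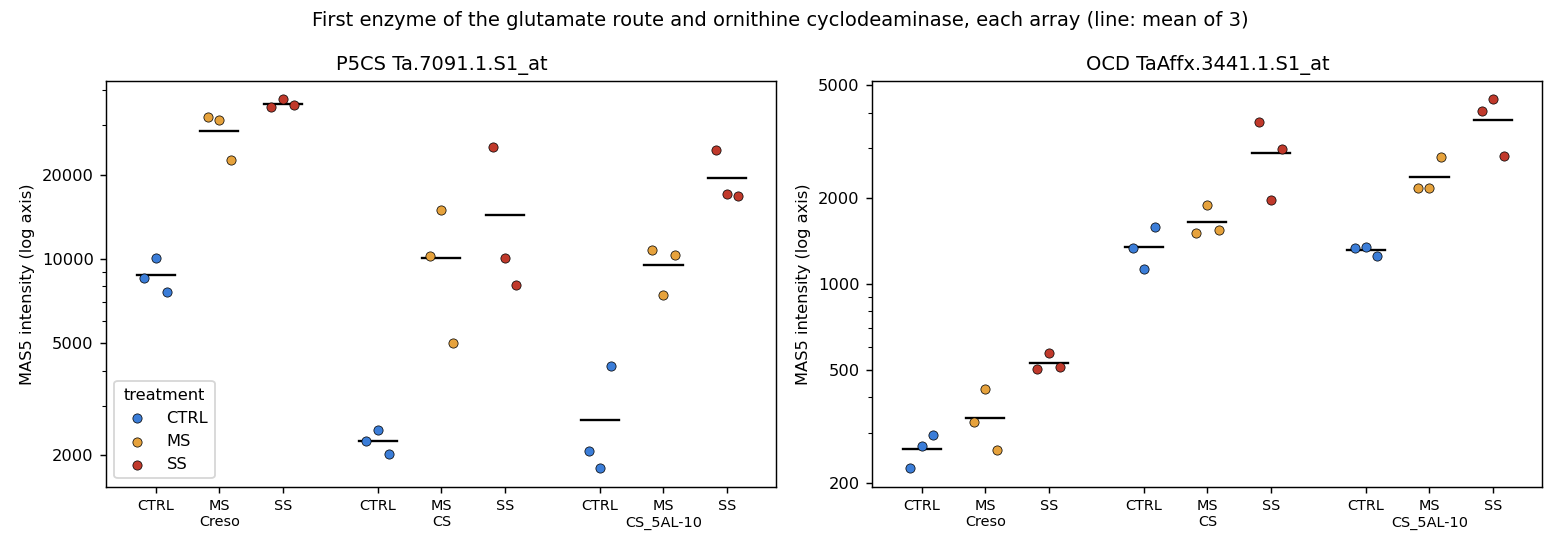
MAS5 intensity on a log axis for P5CS (Ta.7091.1.S1_at) and OCD (TaAffx.3441.1.S1_at) in glumes of Creso, CS and CS_5AL-10 under CTRL, MS and SS. Points are single arrays and lines are means of 3; all stressed P5CS arrays lie above the CTRL arrays of the same genotype, and the 9 Creso arrays of OCD (225 to 573) lie below all bread wheat arrays (1132 to 4455).

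Ordered by mean level, P5CS was highest in Creso SS, followed by Creso MS, CS_5AL-10 SS, CS SS, CS MS, Creso CTRL, CS_5AL-10 MS, CS_5AL-10 CTRL and CS CTRL. The mean centred log2 level ran from 15.36 at the top of this order down to 10.99 at its end. After centring, neighbouring groups did not overlap at 3 places only, between Creso SS and Creso MS, between Creso MS and CS_5AL-10 SS, and between CS_5AL-10 MS and CS_5AL-10 CTRL. Unstressed Creso (13.19) thus stood beside the stressed bread wheats at MS (13.20 in CS and 13.05 in CS_5AL-10).

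OCD, the single probe set that the study lists as ornithine cyclodeaminase, rose at SS in all 3 genotypes and was not called at MS in any. Which reaction its product carries out in wheat was not tested. Creso arrays read 225, 268 and 294 under CTRL, 327, 427 and 261 under MS, and 501, 573 and 511 under SS. CS arrays read 1336, 1132 and 1586 under CTRL, 1512, 1900 and 1548 under MS, and 3726, 1974 and 2986 under SS. CS_5AL-10 arrays read 1338, 1353 and 1259 under CTRL, 2168, 2167 and 2790 under MS, and 4046, 4455 and 2810 under SS. In these intensities every SS array exceeded every CTRL and every MS array of the same genotype, although SS and MS of CS overlapped after centring.

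From CTRL to SS, OCD rose by 1.10 or 2.15-fold in Creso (SE 0.23, adjusted p = 0.001708), by 1.11 or 2.152-fold in CS (adjusted p = 0.002243), and for CS_5AL-10 by 1.56 or 2.938-fold (adjusted p = 5.908e-05). At MS Creso differed from CTRL by 0.40 (95% interval -0.06 to 0.87), CS by 0.47 (0.00 to 0.93) and CS_5AL-10 by 0.80 (0.33 to 1.26, adjusted p = 0.04327), all under 2-fold. The steps from MS to SS were 0.70, 0.64 and 0.76 in Creso, CS and CS_5AL-10, with adjusted p of 0.08178, 0.208 and 0.1191. Averaged over genotypes, the SS increase was 1.26 (adjusted p = 1.473e-07), made of 0.55 from CTRL to MS and 0.70 from MS to SS. The calls in Creso and CS lay close to the 2-fold limit. In Creso the value went under it without centring (0.97), with quantile normalization (0.90) or with an offset of 64 (0.95), and in CS without CS SS replicate 1 (0.92) or CS CTRL replicate 2 (0.95).

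The order of OCD levels followed genotype before treatment. It ran from CS_5AL-10 SS (11.82) over CS SS, CS_5AL-10 MS, CS MS, CS_5AL-10 CTRL and CS CTRL (10.26) to Creso SS (9.32), Creso MS and Creso CTRL (8.21). The stressed Creso glumes therefore stayed below the unstressed bread wheats, and the arrays of CS CTRL and Creso SS did not overlap. Neighbours were also separate between CS MS and CS_5AL-10 CTRL and between Creso SS and Creso MS.

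Among the OAT probe sets, Ta.12337.1.S1_at had the clearest response, and it came at SS. Its Creso intensities were 1916, 2518 and 1594 under CTRL, 1538, 1228 and 2243 under MS, and 3800, 3436 and 3512 under SS. Its CS intensities were 1097, 1100 and 1051 under CTRL, 1186, 1483 and 1168 under MS, and 3389, 1712 and 1923 under SS. Its CS_5AL-10 intensities were 736, 802 and 838 under CTRL, 923, 913 and 1007 under MS, and 972, 1329 and 1377 under SS. All SS arrays lay above the CTRL arrays of their genotype, while Creso MS overlapped Creso CTRL.

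Ta.12337.1.S1_at rose by 1.09 from CTRL to SS in CS (SE 0.22, adjusted p = 0.00251) and by 1.20 from MS to SS in Creso (adjusted p = 0.003028). From CTRL to SS it differed by 0.99 in Creso (adjusted p = 0.004266) and by 0.68 in CS_5AL-10 (adjusted p = 0.04947), both under 2-fold. At MS the differences were -0.21, 0.40 and 0.22 in Creso, CS and CS_5AL-10, and none was called. The call in CS rested on CS SS replicate 1, without which the difference was 0.80. The methods' t-test lost this call (adjusted p = 0.3009) and that from MS to SS in Creso (adjusted p = 0.5872).

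The brightest OAT probe set, Ta.5321.1.S1_at, did not share this response. Creso glumes gave 9398, 12588 and 7291 under CTRL, 4674, 6319 and 6515 under MS, and 5681, 5536 and 4903 under SS. CS glumes gave 6786, 6865 and 9482 under CTRL, 7750, 8506 and 10848 under MS, and 9542, 9453 and 9573 under SS. CS_5AL-10 glumes gave 11727, 11412 and 9538 under CTRL, 12964, 14012 and 19331 under MS, and 13242, 11085 and 8694 under SS. In these intensities both stressed groups of Creso lay below Creso CTRL, those of CS overlapped CS CTRL, and in CS_5AL-10 MS lay above CTRL and SS overlapped it. After centring, Creso SS still lay wholly below CTRL and CS SS lay wholly above it, while MS overlapped CTRL in every genotype.

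In Creso, Ta.5321.1.S1_at differed from CTRL by -0.65 at MS (SE 0.22, adjusted p = 0.1436) and by -0.69 at SS (adjusted p = 0.04031, under 2-fold). In CS it differed by 0.40 at MS and 0.37 at SS (95% interval -0.09 to 0.84), and in CS_5AL-10 by 0.45 and 0.07 (-0.39 to 0.54). The contrast of the SS response between CS and Creso, 1.07 (95% interval 0.41 to 1.72, adjusted p = 0.06703), did not pass.

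The remaining OAT probe sets had no drought call. Ta.21613.1.S1_at had Creso intensities of 2504 to 5110, CS intensities of 1662 to 3796 and CS_5AL-10 intensities of 1901 to 4426. Its differences from CTRL were -0.46, 0.42 and 0.57 at MS and 0.32, 0.55 and 0.80 at SS in Creso, CS and CS_5AL-10 (SE 0.25), the last with an adjusted p of 0.03947 and under 2-fold. The dim Ta.28040.1.A1_at read 37, 140 and 129 in Creso CTRL against 199, 197 and 209 in Creso SS, a separation of 1.17 log2 units (SE 0.41, adjusted p = 0.06093). In the bread wheats its SS differences were 0.68 in CS and 0.66 in CS_5AL-10, and its MS differences were 0.37, 0.05 and 0.28 in the 3 genotypes.

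**Figure D2:**
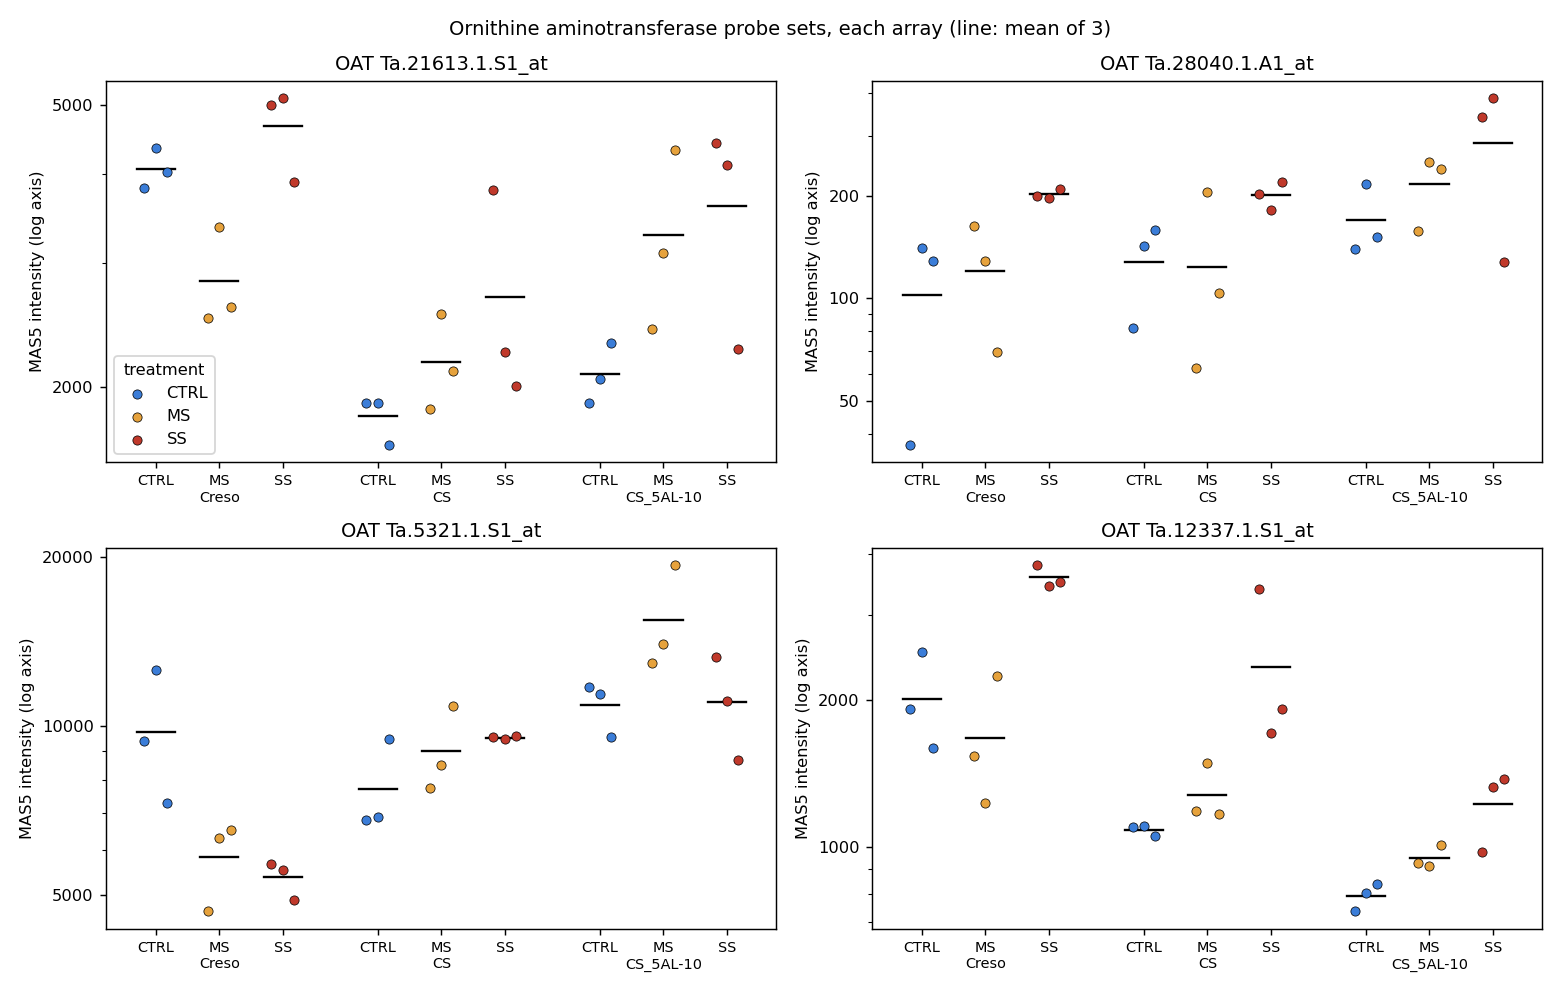
MAS5 intensity on log axes for the 4 tested OAT probe sets in the 9 groups, with a point per array and a line at the mean of 3. Ta.12337.1.S1_at is highest at SS in each genotype, whereas Ta.5321.1.S1_at is lower in stressed than in unstressed Creso (4674 to 6515 against 7291 to 12588).

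Counted over the 6 tested members, the drought calls were few, and all were increases. At MS against CTRL, P5CS was the only member called higher in each genotype, beside shares of all tested probe sets called higher of 0.707% for Creso, 1.71% for CS and 0.777% for CS_5AL-10. At SS against CTRL, Creso had 2 members called higher (P5CS and OCD, background 4.45%), CS had 3 (P5CS, OCD and Ta.12337.1.S1_at, background 3.61%) and CS_5AL-10 had 2 (P5CS and OCD, background 2.72%). At SS against MS Creso had 1 (Ta.12337.1.S1_at, background 1.28%), CS had 0 (background 0.17%) and CS_5AL-10 had 0 (background 0.308%). For the latter 2 comparisons, limma gave 2 and 3 members an unadjusted p under 0.05, and the methods' t-test called 0 in both. In the mean over genotypes, 1 member was called higher at MS (background 0.681%), 2 at SS (background 2.74%) and 0 from MS to SS (background 0.516%), where 5 had an unadjusted p under 0.05 in limma.

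Of the 54 drought comparisons of single members, 11 were called, all of them higher. P5CS held 6 of the 11 calls, OCD 3 and Ta.12337.1.S1_at 2. At SS the median difference of the 6 members was 1.04 for Creso (0.13 over all tested probe sets), 0.88 for CS (0.06) and 0.74 for CS_5AL-10 (0.06). At MS the member medians were 0.08, 0.41 and 0.51, beside 0.07, 0.15 and -0.04.

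After centring, arrays of SS lay wholly above those of CTRL for 5 of 6 Creso members (22% of all tested probe sets), 6 of 6 CS members (18.9%) and 4 of 6 CS_5AL-10 members (20.2%). The sixth Creso member, Ta.5321.1.S1_at, lay wholly below, as did 10.1% of all tested probe sets. At MS this held for P5CS in every genotype, for OCD in both bread wheats and for Ta.12337.1.S1_at in CS, beside backgrounds of 8.77% for Creso, 20.6% for CS and 10.6% for CS_5AL-10.

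**Figure D3:**
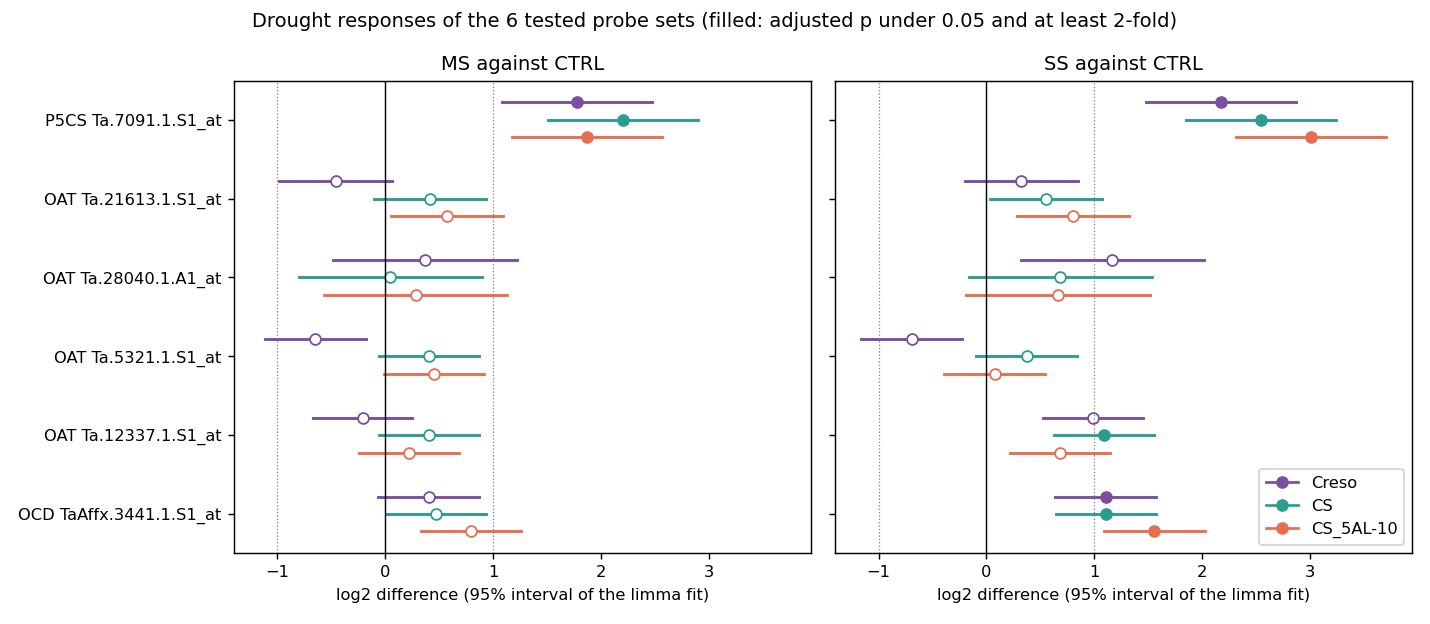
Log2 differences of MS and SS from CTRL for the 6 tested members in each genotype, with 95% intervals from the limma fit. P5CS lies between 1.77 and 3.01 in all 6 comparisons, and the ornithine-route probe sets lie between -0.69 and 1.56.

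The 2 routes were compared within arrays, as the log2 level of P5CS minus that of each ornithine-route probe set. The level of such a difference depends on probe brightness, so only its shift between groups is read, and no p is given for it. Against the 5 tested ornithine-route probe sets, at MS and SS in 3 genotypes, all 30 shifts from CTRL went toward P5CS. They ran from 1.0034 to 2.93 log2 units, or 2.005- to 7.639-fold. The stressed and CTRL arrays did not overlap for 29 of the 30, the exception being Ta.28040.1.A1_at in Creso at SS. These 30 values share the same P5CS readings, so they are not independent. P5CS itself rose by 1.77 to 3.01, while the median over all tested probe sets moved by -0.04 to 0.15. The direction of the shifts thus follows largely from the rise of P5CS and cannot be read as particular to the ornithine route. The share of all tested probe sets with such a shift, or with such a separation of arrays, was not computed.

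Against OCD, the ornithine-route probe set that rose most widely, the shift toward P5CS was 1.37 at MS and 1.06 at SS in Creso. CS gave 1.74 at MS and 1.44 at SS, and CS_5AL-10 gave 1.07 and 1.45. The MS and SS arrays of CS overlapped widely in this difference (1.68 to 2.97 and 1.43 to 2.74), and the step between MS and SS was not tested. Against Ta.12337.1.S1_at in Creso, it went from 1.98 at MS to 1.18 at SS, with the OAT rising by 1.20 and P5CS differing by 0.40 between them. Against Ta.5321.1.S1_at the Creso shift was 2.42 at MS and 2.86 at SS. The shifts against OAT probe sets ranged from 1.0034 to 2.93 and those against OCD from 1.06 to 1.74.

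**Figure D4:**
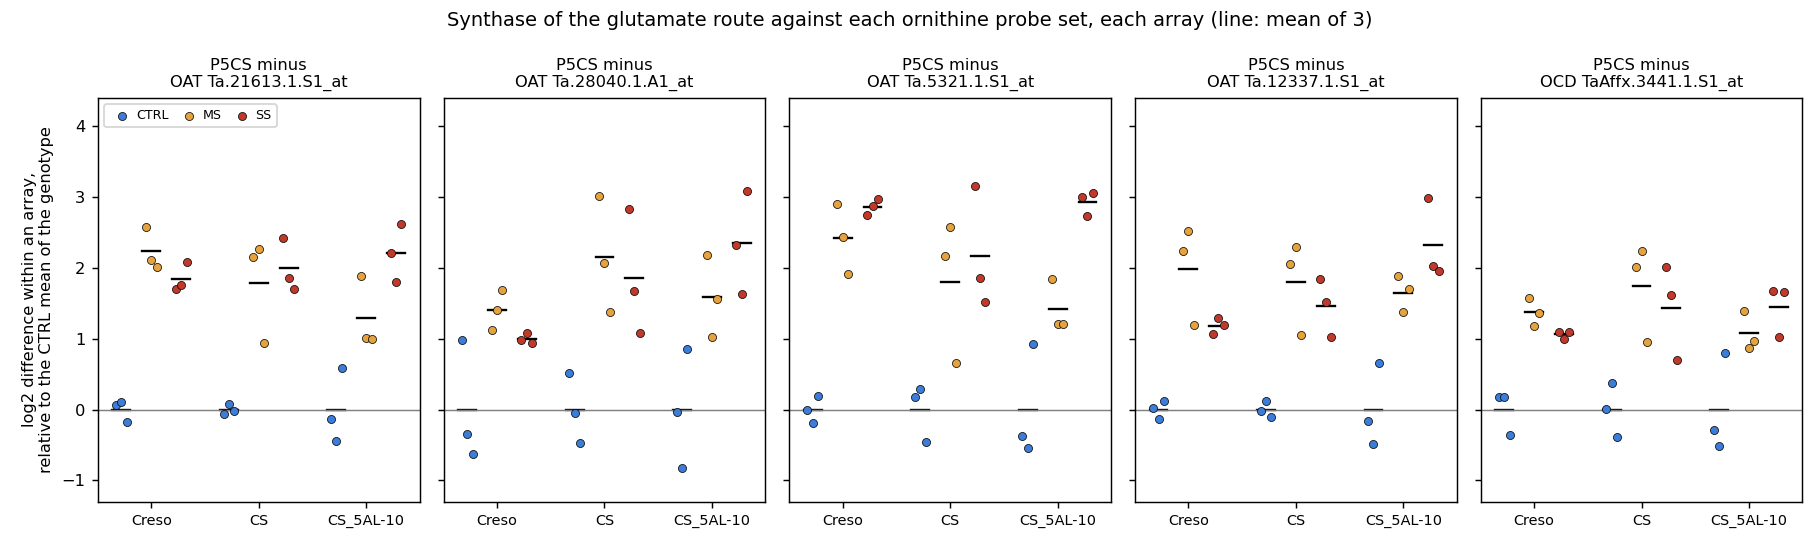
Log2 level of P5CS minus that of each of 5 ornithine-route probe sets on the same array, shown relative to the CTRL mean of the genotype, with a point per array and a line at the mean of 3. All MS and SS means lie above 0, between 1.0034 and 2.93.

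Between genotypes, P5CS and OCD differed in opposite directions, while 2 OAT probe sets had calls in the direction of P5CS and 1 had a call in that of OCD. P5CS was lower in both bread wheats than in Creso under every treatment. CS differed from Creso by -2.20 in CTRL (SE 0.34, adjusted p = 9.474e-06), -1.77 in MS (adjusted p = 0.0001585) and -1.82 in SS (adjusted p = 9.654e-05). CS_5AL-10 differed by -2.01 (adjusted p = 2.736e-05), -1.91 (adjusted p = 4.534e-05) and -1.17 (adjusted p = 0.005773) in the same order. The last of these went to -0.90 without centring and to -0.87 with quantile normalization (adjusted p = 0.06621), and so lost its call. Under the methods' t-test, 4 of these 6 calls were lost, those of CS at MS and SS and of CS_5AL-10 in CTRL and SS, with adjusted p of 0.05374 to 0.1338.

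OCD was higher in both bread wheats. CS exceeded Creso by 2.05 in CTRL (SE 0.23, adjusted p = 7.48e-08), 2.11 in MS (adjusted p = 4.487e-08) and 2.05 in SS (adjusted p = 7.614e-08), about 4.13- to 4.324-fold. CS_5AL-10 exceeded it by 2.05 (adjusted p = 5.925e-08), 2.45 (adjusted p = 3.158e-09) and 2.50 (adjusted p = 2.137e-09), or 4.15- to 5.673-fold. Of these 6 calls, the methods' t-test lost that of CS at MS (adjusted p = 0.06189). Each difference was larger than that between SS and CTRL in any genotype.

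Of the 4 tested OAT probe sets, 2 were called lower in bread wheat, in 8 of 24 comparisons with Creso. Ta.12337.1.S1_at was lower in CS_5AL-10 than in Creso under all 3 treatments, by -1.52, -1.09 and -1.82 log2 units in CTRL, MS and SS, and in CS in CTRL (-1.10) and SS (-1.0019). Ta.21613.1.S1_at was lower in CTRL in both, with differences of -1.40 for CS and -1.17 for CS_5AL-10, and also in CS at SS (-1.17). Without centring and with quantile normalization, 5 of these 8 calls were lost: Ta.12337.1.S1_at in CS in CTRL (-0.86 and -0.83) and SS (-0.68 and -0.58) and in CS_5AL-10 at MS (-0.76 and -0.78), and Ta.21613.1.S1_at in CS_5AL-10 in CTRL (-0.96 and -0.89) and in CS at SS (-0.84 and -0.74). The methods' t-test also lost 5 of the 8. Ta.5321.1.S1_at was called higher in CS_5AL-10 at MS (1.07, adjusted p = 0.0003287), a call lost under that t-test (adjusted p = 0.09798), and its other 5 differences lay between -0.56 and 0.74. The fourth, Ta.28040.1.A1_at, had no call between genotypes and differed by -0.34 to 0.57.

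In CS against Creso, 1 member was called higher and 3 lower in CTRL, beside 15.4% and 15.5% of all tested probe sets. The counts were 1 and 1 in MS (14.1% and 12.1%) and 1 and 3 in SS (12.8% and 15.8%). In CS_5AL-10 against Creso they were 1 higher and 3 lower in CTRL (16.3% and 14.8%), 2 and 2 in MS (14.5% and 18.9%), and 1 and 2 in SS (14% and 16.8%). The genotype background is thus high, and the members' calls stand among many. The median over all tested probe sets was itself shifted in these comparisons, by -0.18 to -0.34, and without centring it moved by 0.14 to 0.33 toward 0.

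**Figure D5:**
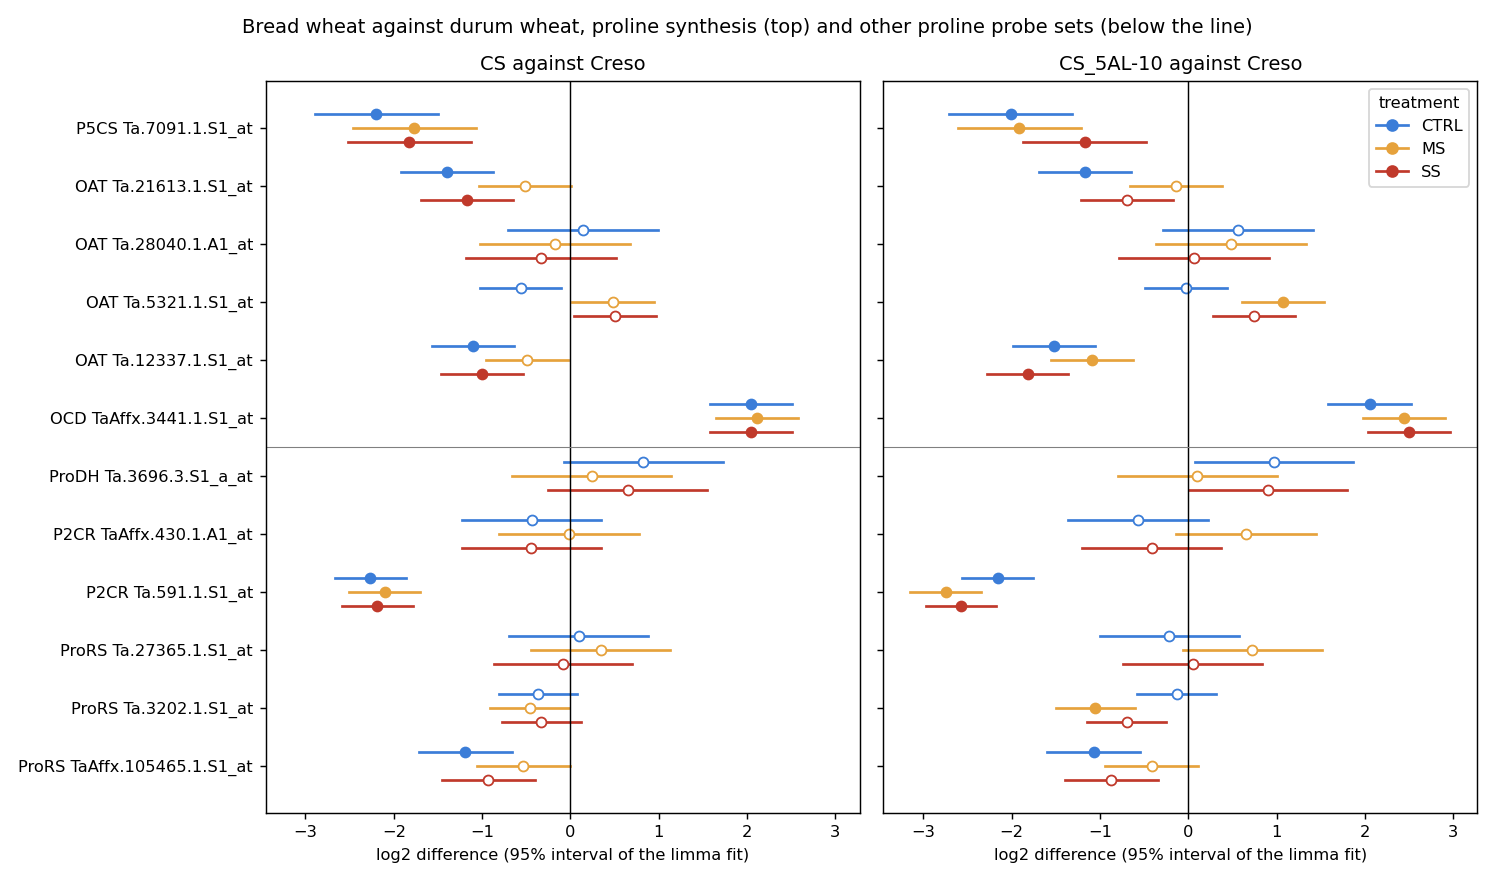
Log2 differences of CS and CS_5AL-10 from Creso under CTRL, MS and SS, with 95% intervals from the limma fit. The 6 tested members are at the top, and the other tested probe sets of the study's proline list are below the line. P5CS lies between -2.20 and -1.17 and OCD between 2.05 and 2.50.

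Within arrays, the difference between P5CS and OCD averaged 4.98 log2 units on the CTRL arrays of Creso, 0.73 on those of CS and 0.91 on those of CS_5AL-10. Relative to Creso, the balance was thus shifted toward OCD by 18.97-fold in CS and 16.71-fold in CS_5AL-10 without stress. At MS the shift was 14.71- and 20.52-fold, and at SS it was 14.63- and 12.77-fold. The Creso arrays did not overlap those of either bread wheat in any treatment. For scale, drought moved the same difference the other way by at most 1.74 log2 units within a genotype. Against the OAT probe sets the balance was less displaced. In 23 of 24 such comparisons with Creso it was shifted away from P5CS, by 1.394- to 7.905-fold, and the arrays did not overlap in 19 of these. The exception was Ta.12337.1.S1_at at SS in CS_5AL-10, which went toward P5CS by 0.65 log2 units without overlap. These 24 values share the same P5CS readings. P5CS itself was lower in both bread wheats under every treatment, while the median over all tested probe sets was shifted by -0.18 to -0.34. The direction thus follows largely from P5CS and cannot be read as a property of the OAT probe sets. The share of all tested probe sets with such a shift, or with such a separation of arrays, was not computed.

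The storage protein probe sets moved with genotype and, within CS, were lower on stressed arrays. Their mean log2 level was 5.58 to 5.88 in Creso CTRL, with 2 to 3 of 17 above the array median, and 11.40 to 11.82 in CS CTRL, with 17 of 17. In CS MS it was 6.01 to 11.23 and in CS SS 5.94 to 10.63, all below CS CTRL. In CS_5AL-10 the treatments overlapped, at 8.95 to 11.16 in CTRL, 7.35 to 10.85 in MS and 6.91 to 11.59 in SS. In Creso, MS replicate 1 stood apart at 9.50, beside 5.54 to 6.56 on the other Creso arrays. With this level added as a term of the fit, a choice made after the data were seen, no member call was lost in any of the 27 comparisons. Because this level differed widely between Creso and the bread wheats in CTRL, the term cannot separate it from genotype.

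CS_5AL-10 and CS had no called member difference under any treatment. The background was 2.05% of probe sets called in CTRL, 3.98% in MS and 2.15% in SS, and limma gave 1, 2 and 1 members an unadjusted p under 0.05, while the methods' t-test called 0 in each. P5CS differed by 0.19 in CTRL (95% interval -0.51 to 0.88), -0.15 in MS (-0.84 to 0.55) and 0.65 in SS (-0.04 to 1.35). OCD differed by 0.01, 0.34 and 0.46, the last with an interval from -0.01 to 0.92. Without CS SS replicate 1, the P5CS difference at SS was 1.13 and was called (adjusted p = 0.04867).

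The size of the drought response was also compared between genotypes, and no member passed in any of the 6 contrasts. For CS against Creso, 0.593% of all tested probe sets were called at MS and 2.53% at SS. For CS_5AL-10 against Creso these shares were 0.921% and 2.79%, and for CS_5AL-10 against CS they were 0.00587% and 0.0088%. In the same order, 2, 1, 2, 1, 0 and 0 members had an unadjusted p under 0.05 in limma. The methods' t-test gives no such contrast. The P5CS response at SS was larger in CS_5AL-10 than in Creso by 0.84 (95% interval -0.14 to 1.82) and in CS than in Creso by 0.38 (-0.61 to 1.36). For OCD the SS responses of CS and Creso differed by 0.00 (-0.66 to 0.66) and those of CS_5AL-10 and Creso by 0.45 (-0.21 to 1.11).

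The other probe sets of the study's proline list are named proline dehydrogenase, pyrroline-2-carboxylate reductase and prolyl-tRNA synthetase. Of these 11, 6 passed the filter, and 0 of their 54 drought comparisons were called. Over all tested probe sets, 0.17% to 4.45% were called higher in a drought comparison, so the count lies near this background. The pyrroline-2-carboxylate reductase probe set Ta.591.1.S1_at came nearest. In Creso it read 2319, 2648 and 2718 in CTRL and 4800, 4338 and 4179 in SS, a difference of 0.92 (SE 0.19, adjusted p = 0.002259). In CS it read 686, 566 and 608 in CTRL and 1694, 913 and 1136 in SS, a difference of 0.9973 that stayed just under 2-fold (adjusted p = 0.001514). Ta.591.1.S1_at was lower in both bread wheats than in Creso under every treatment, by -2.10 to -2.74 log2 units. In these comparisons, 12.1% to 18.9% of all tested probe sets were called lower. These differences are 6 of the 9 genotype calls of this list.

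The other 3 calls, also lower, were prolyl-tRNA synthetases, which charge tRNA with proline for protein synthesis. TaAffx.105465.1.S1_at was lower than in Creso in CTRL, by -1.19 in CS and -1.07 in CS_5AL-10, and Ta.3202.1.S1_at was lower in CS_5AL-10 at MS (-1.05). The tested proline dehydrogenase probe set, Ta.3696.3.S1_a_at, had CTRL intensities of 145 to 423 for Creso, 480 to 648 for CS and 493 to 789 for CS_5AL-10. Its SS arrays read 95 to 259, 218 to 494 and 280 to 668 in the same genotypes. No comparison of this catabolic probe set was called, with a mean SS difference over genotypes of -0.39 (95% interval -0.90 to 0.13).

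For the supply of glutamate, the only probe set matched by name was Ta.2870.1.S1_at, for glutamine synthetase isoform GSr1, which assimilates ammonium into glutamine. The study picked it for its genotype pattern on these arrays, so it is described without a test. It read 4.028 to 66.55 in Creso, above the array median on 1 of 9 arrays, while CS arrays read 4320 to 7065 and CS_5AL-10 arrays 4402 to 6412. No named probe set matched the lists for ornithine and arginine synthesis.

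The named probe sets whose levels most resembled those of the members were found by Pearson r over the 27 arrays, as a description, among 1305 tested probe sets with a name. Most of these names come from best Arabidopsis matches of probe sets that the study selected for their drought response. For P5CS they were Ta.13183.1.S1_x_at, of the phosphatidylethanolamine-binding family (r = 0.936), Ta.10334.2.A1_at, of the D-alanine ligase family (0.931), and Ta.26177.2.S1_a_at, of an amino acid transporter family (0.930). For OCD they were Ta.3784.1.S1_a_at, similar to maize In2-1 (0.970), and Ta.12159.1.A1_at, a hydroxyproline-rich glycoprotein (0.964), an r that reflects the genotype step as well as drought. Among all 34089 tested probe sets, named or not, an r over 0.9 was reached by 279 for OCD, 32 for P5CS and 11 for Ta.12337.1.S1_at. With genotype means removed, the leading matches were Ta.10909.1.S1_s_at of the peptidase S41 family for P5CS (0.937), a sucrose synthase, Ta.11152.3.S1_at, for Ta.12337.1.S1_at (0.870), and a dehydrin similar to RAB18, Ta.2638.1.S1_at, for Ta.28040.1.A1_at (0.752). The arrays share scaling and storage protein content, which can raise any such r.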

How the data were processed

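Glume RNA was hybridised to 27 arrays, 3 in each of 9 groups of genotype and treatment, grouped by sample title. Some labels of CS_5AL-10 name CS in the genotype field. The authors deposited linear MAS5 intensity values (version not given in the sources used here), scaled per array to a trimmed mean of 497.1 to 498.5. Their own results used RMA on the same arrays, and 0 columns were unused here. Values were taken to log2(intensity + 16) and centred on array medians. Of 61179 probe sets, after removal of 111 controls, 34089 above the array median on all 3 arrays of a group were tested with limma 3.58.1 under R 4.3.3. Group means were fitted over all arrays with an empirical Bayes variance trend and Benjamini-Hochberg adjustment per comparison, over 27 comparisons. Scripts were tested on simulated data. Where same-numbered arrays of a genotype were compared, their deviations correlated at -0.566 to 0.205, so numbers were not taken to pair samples. The text names all members, called probe sets of the proline list, supply genes, and named probe sets most like each member. Members and lists were chosen with earlier results of these data known. Probe sequences were not analysed here. Results were recomputed with the methods' t-test, which lets variances differ, with other offsets, filters and scaling, in separate fits, with a replicate block, without a fold limit and without each array in turn.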

Additional observations from a re-analysis of the deposited data

Results flagged for a closer look

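For the OAT probe set Ta.5321.1.S1_at, every Creso SS array was below every Creso CTRL array (log2 difference -0.69) and every CS SS array was above every CS CTRL array after centring (0.37), which drew attention to it. The CS value has a 95% interval of -0.09 to 0.84 and was not called, and the CS arrays overlapped before centring. The difference between the responses was tested and was 1.07 with a limma adjusted p of 0.06703. Its adjusted p was 0.01694 without centring, 0.01106 with quantile normalization, 0.03718 with an offset of 64, 0.0493 with a filter at the 75th percentile, 0.08085 with a replicate block, 0.09801 with an offset of 1, 0.101 without a filter and 0.1169 with the storage protein level as a term. Without Creso CTRL replicate 3 the difference was 1.29 (adjusted p = 0.02698).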

How the results depend on the processing

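Under the methods' t-test, 0 members were called at MS against CTRL in each genotype, at SS against MS in Creso, at SS against CTRL in each genotype and between CS and Creso at MS. It called 1 member between CS and Creso at SS and 2 between CS_5AL-10 and Creso in CTRL and in MS. The P5CS differences of 1.77, 2.20 and 1.87 at MS and 2.17, 2.54 and 3.01 at SS then lost their calls. This test estimates the spread from 3 arrays a group alone. At SS in Creso, 1 member was called with an offset of 64, without centring or with quantile normalization. Between CS and Creso at SS, 2 were called without centring or with quantile normalization. For the SS response of CS against Creso, 1 was called with an offset of 64, a filter at the 75th percentile, no centring or quantile normalization, and for the MS response of CS_5AL-10 against Creso, 1 was called under the last 2. With quantile normalization the shift of P5CS against Ta.12337.1.S1_at in Creso SS was 1.31. Without a fold limit, the counts were 4 in Creso and in CS_5AL-10 at SS, 2 in CS_5AL-10 at MS, 2, 3 and 5 for the means over genotypes at MS, SS against MS and SS against CTRL, 5 between CS_5AL-10 and Creso at SS and 1 between CS_5AL-10 and CS at SS. The causes of these moves were not tested, apart from the fewer limits or arrays that a setting itself imposes.

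Directions that turned were those of small values: Ta.28040.1.A1_at in CS at MS (-0.13 without centring), Ta.5321.1.S1_at in CS_5AL-10 at SS (-0.0001 without centring, -0.14 with quantile normalization, -0.0429 with the storage protein level as a term), OCD between CS_5AL-10 and CS in CTRL (-0.0023 with an offset of 64, -0.0242 without centring, -0.0693 with quantile normalization), P5CS between them at MS (0.0353 without centring, 0.0488 with quantile normalization), the OCD MS response of CS against Creso (-0.0351 and -0.0353 under the same settings) and its SS response (-0.0499 with an offset of 1).

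Leaving out single arrays moved some counts: SS against MS in Creso, 1 to 2 (2 without Creso MS replicate 2); SS against CTRL in CS, 1 to 3 (1 without CS SS replicate 1); CS_5AL-10 against CS at SS, 0 to 1 (without CS SS replicate 1 or 2); the MS responses of both bread wheats and the SS response of CS against Creso, each 0 to 1 (1 without Creso CTRL replicate 3, and for the SS response also without Creso MS replicate 1). Counts also ran from 2 to 3 at SS against CTRL in Creso and CS_5AL-10. Between genotypes, 3 to 4 were called for CS against Creso in CTRL and SS and for CS_5AL-10 against Creso at MS. In Creso at SS, Ta.12337.1.S1_at was called without Creso CTRL replicate 1 or 2 or Creso SS replicate 2. Ta.28040.1.A1_at was called there without CS MS replicate 1 or 2 or CS_5AL-10 SS replicate 3. Without the last of these, Ta.21613.1.S1_at was called in CS_5AL-10 at SS (1.07). Single differences that turned ranged, at MS against CTRL, from -0.062 to 0.66 for Ta.28040.1.A1_at in Creso and from -0.35 to 0.44 in CS, and at SS in CS_5AL-10 from -0.0465 to 0.20 for Ta.5321.1.S1_at. For P5CS they ranged from -0.13 to 0.69 at SS against MS in CS, from -0.16 to 0.39 in CTRL and -0.54 to 0.21 in MS between CS_5AL-10 and CS, from -0.10 to 0.68 for the SS response of CS against Creso, and for the MS response of CS_5AL-10 from -0.11 to 0.44 against Creso and -0.73 to 0.0162 against CS. For OCD they ranged from -0.15 to 0.13 between CS_5AL-10 and CS in CTRL, and from -0.091 to 0.32 and -0.19 to 0.26 for the MS and SS responses of CS against Creso.

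Calls between genotypes that rested on single arrays were those of Ta.12337.1.S1_at in CS in CTRL (range -1.29 to -0.96 with each array left out, lost without Creso CTRL replicate 2) and SS (-1.28 to -0.81, lost without Creso SS replicate 1 or CS SS replicate 2 or 3), in CS_5AL-10 at MS (-1.22 to -0.84, lost without Creso MS replicate 3), and of Ta.5321.1.S1_at in CS_5AL-10 at MS (0.83 to 1.25, lost without Creso MS replicate 1 or CS_5AL-10 MS replicate 3). With a replicate block, Ta.28040.1.A1_at in Creso at SS was called (1.17, adjusted p = 0.04211), and no call of a member was lost with the block. The t-test and the separate fits give no mean over genotypes and no contrast of responses.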
